A study of Mus musculus with 4 samples.

Results

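The DYRK and CLK kinases were described in astrocyte-enriched cultures (AECs) before and after oxygen–glucose deprivation (OGD). The family was taken as *Dyrk1a*, *Dyrk1b*, *Dyrk2*, *Dyrk3*, *Dyrk4*, *Clk1*, *Clk2*, *Clk3* and *Clk4*, and every non-control probe that carries one of these names was read separately. This gave 15 probes for 9 genes, of 39429 probes for 29676 gene names on the array. The AECs were mixed glial cells from the cortex of newborn ICR mice, treated in both groups with PLX3397, which blocks the CSF1 receptor and thereby depletes microglia. One group was left untreated (2 cultures) and the other was kept in medium without glucose under hypoxia for 15 h (2 cultures). RNA of each culture was labeled with the dye Cy3 and hybridized to its own single-color array, and the study asked which genes respond to OGD. Per the methods, several pups were pooled in a preparation and wells held separate cultures of different pups, while the labels do not tie an array to its preparation. The cultures still held oligodendrocyte lineage cells, and in such bulk RNA fewer cells of a type and less RNA per cell cannot be told apart.

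DYRK kinases phosphorylate a tyrosine in their own activation loop while they are being made and thereafter phosphorylate serine and threonine in other proteins. They act on transcription factors, on the switch between quiescence and the cell cycle, and on protein condensates. CLK kinases are their relatives in the CMGC group of kinases and phosphorylate SR proteins, the serine- and arginine-rich splicing factors, so that they tune splicing in the nucleus. *Dyrk1a* is best known in brain from its place on the chromosome that is present in excess in Down syndrome.

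A microarray probe reads only the stretch of transcript that it matches, and several of these genes carry probes for different stretches. The first 30 of the 60 bases of each probe that the results turn on are given below, 5′ to 3′ and as the files hold them, with no base capitalised.
*Dyrk1b* A_55_P2143324: acaagacacatcaagcccctatctctgcct
*Dyrk1b* A_55_P2021792: tgttttctatttattgtaccaaagacagtg
*Dyrk1b* A_55_P2302577: gtgtgaattgagatatattttaagtgtaaa
*Dyrk2* A_55_P2329680: caaggcacgtggaaagaattttttagtatg
*Dyrk2* A_55_P2052939: ttcagcttccaagctgaggactaacttggc
*Clk1* A_52_P679152: gagcataggatgtattcttatcgagtatta
*Clk4* A_55_P2171008: tgtcatgacgaagagcatgagaagctgttt
*Clk4* A_52_P445387: aggggtcttctgtgtacttctctaggagca
On mm9, the build of the files, the *Dyrk1b* probes lie on the plus strand of chromosome 7, at 28971620 to 28971679, 28972166 to 28972225 and 28982347 to 28982406. The third of them, A_55_P2302577, thus starts 10181 bases beyond the second. The files place the first and the second at bases 1826 and 2372 of NM_001037957, a curated transcript, and the third at base 12646 of XM_006539526, a predicted one. The *Dyrk2* probes lie 1478 bases apart on the minus strand of chromosome 10, with A_55_P2052939 (118296642 to 118296701) before A_55_P2329680 (118295164 to 118295223) in the direction of transcription. The *Clk4* probes lie 138 bases apart on chromosome 11, at 51094791 to 51094850 and 51094929 to 51094988. The *Clk1* probe spans 423 bases of chromosome 1 (58469863 to 58470285) with its 60 bases, so it is split over the genome as a probe across a splice junction would be. Exon, intron and untranslated region of the probes were not assigned here.

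The deposited values are the processed signal, a background-subtracted intensity that is not normalized between arrays. Its 75th percentile was lower after OGD (887 and 776) than in untreated cultures (2135 and 2164), whereas 9 probes for spiked-in control RNA differed by only −0.085 on average on the log2 scale (range, −0.75 to 0.28). Differences below are therefore OGD minus untreated on the log2 scale after subtraction of each array's 75th percentile, and the value after scaling on the spiked-in RNA is given where it turns a direction. That second scaling lowers the median difference of all probes tested from 0.18 to −1.11. The shift between both scalings is −1.29, so that smaller positive differences turn negative. Of the 11 astrocyte markers fixed for the comparison, all 11 were well above background in both groups, and their summed signal relative to the 75th percentile was 183 to 202 in untreated cultures and 270.0 to 279.6 after OGD. The same sum for 9 microglial markers, all well above background in untreated cultures, was 2.20 to 2.51 there and 6.81 to 7.0 after OGD. Of these markers, *Cx3cr1*, *Ptprc* and *Trem2* were not well above background after OGD. The corresponding sum of 11 oligodendrocyte lineage markers was 30.7 to 31.0 and 28.3 to 29.5 (not above background after OGD, *Sox10*), that of 6 neuronal markers 26.5 to 28.5 and 27.8 to 30.9 (*Rbfox3*), and that of 4 fibroblast markers 14.4 to 18.6 and 10.1 to 12.1. For 3 endothelial markers it was 0.133 to 0.140 and 0.146 to 0.173, with *Cldn5* not above background in either group. Their part in the kinase values was not tested.

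All 15 kinase probes were tested, since each was well above background (a mark set by the scanner software) on both arrays of at least 1 group, and 14 were so on all 4 arrays. None was saturated or marked as an outlier. With limma and an adjusted p under 0.05, 13 of the 15 were called, 9 higher and 4 lower after OGD. Over all 28258 probes tested, 65.0% were called in either direction, 37.9% higher and 27.1% lower. One of the 4 lower probes, that of *Dyrk4*, was above background in untreated cultures only, and with detection on all 4 arrays required, 12 of 14 were called, 9 higher and 3 lower. The family was selected on these same values, the signals of untreated against OGD arrays, so the counts are a description and no test of the family is given. Scaled on the spiked-in RNA, 12 were called, 2 higher and 10 lower, against 4.47% higher and 81.9% lower over all probes. The count of 13 became 7 (46.7%) without untreated replicate 1, 7 (46.7%) without untreated replicate 2 and 8 (53.3%) with the methods' t-test, while the share over all probes fell to 38.8%, 35.4% and 44.8%. The 4 arrays of the groups did not overlap in 13 of the 15 probes, against 84.7% of all probes tested.

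**Figure D1:**
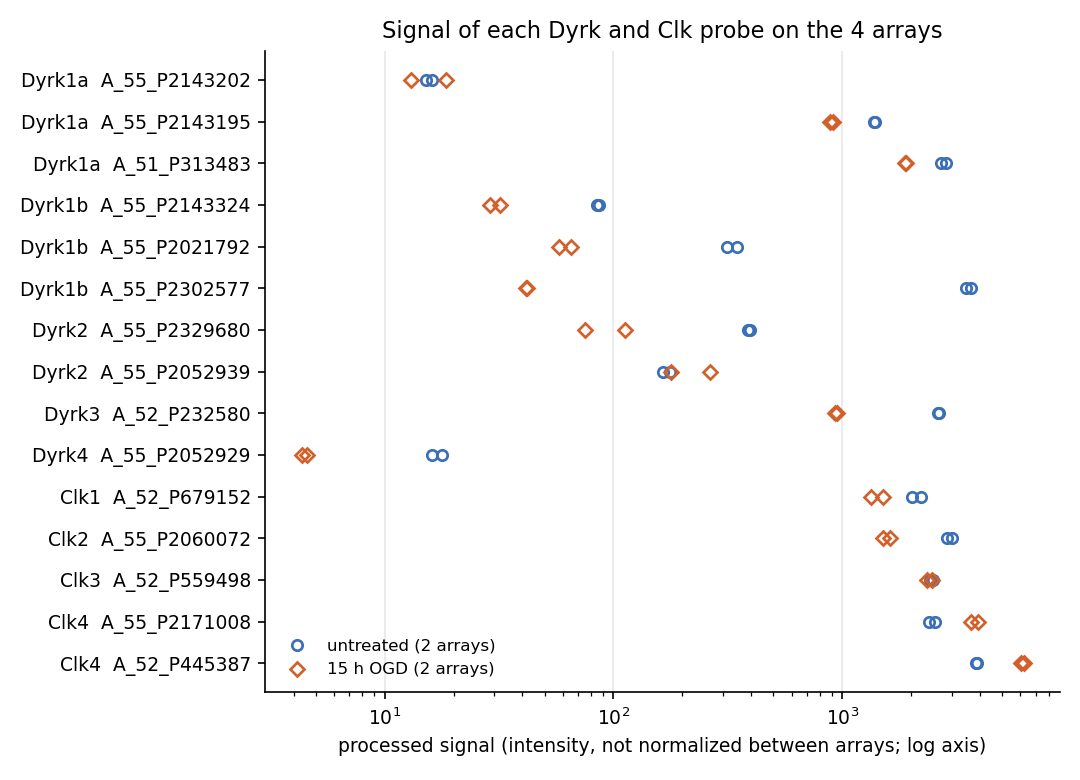
Processed signal (intensity, log axis) of each *Dyrk* and *Clk* probe on the 2 untreated arrays (circles) and the 2 arrays after 15 h of OGD (diamonds), before any scaling between arrays. The last *Dyrk1b* probe stands at 3645 and 3465 in untreated cultures and at 41.5 and 41.8 after OGD, while both *Clk4* probes are brighter after OGD.

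Before scaling, 12 of the 15 probes had a lower mean log2 signal after OGD, as the plot of signals by array shows. The exceptions were the 2 probes of *Clk4* and 1 of the 2 probes of *Dyrk2*. Untreated and OGD arrays overlapped in this unscaled signal for *Clk3* and for the dimmest probe of *Dyrk1a*.

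**Figure D2:**
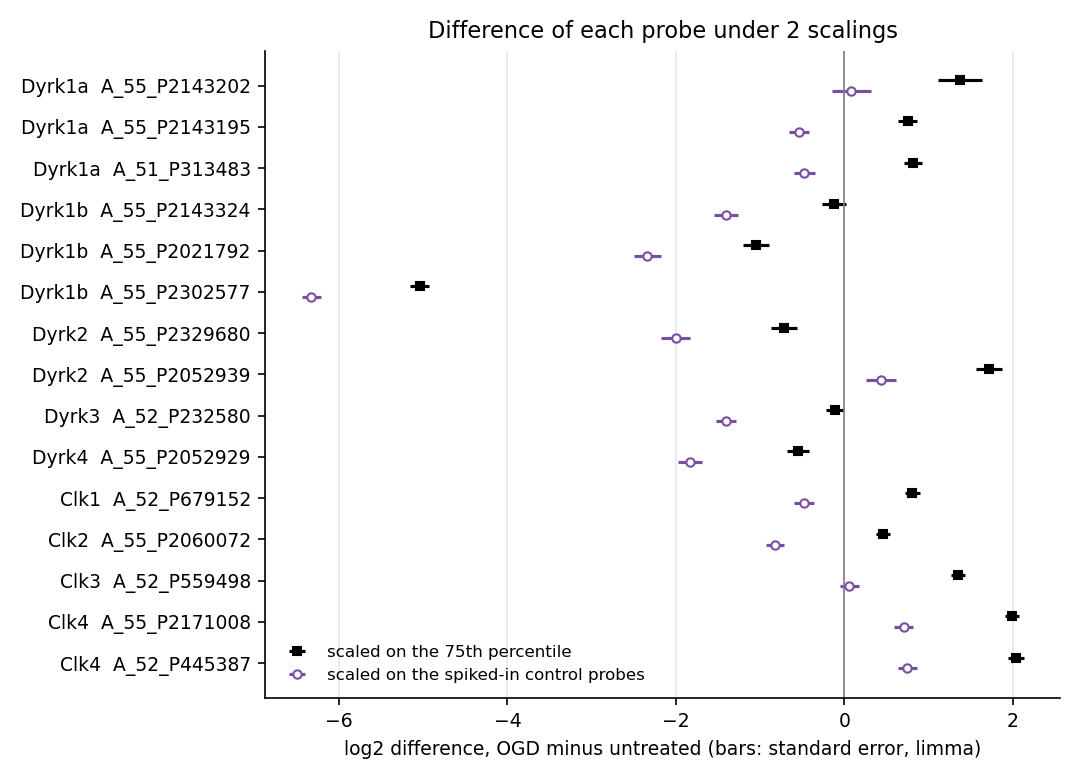
Log2 difference of each probe, OGD minus untreated, scaled on the 75th percentile (filled squares) or on the spiked-in control probes (open circles), with the standard error of the limma fit as bars (2 arrays per group). Both *Clk4* probes lie above 0 and the *Dyrk1b* probe A_55_P2302577 lies far below 0 under either scaling, whereas the point of *Dyrk4*, not well above background after OGD, is no measured fold.

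*Dyrk1b*, also called Mirk, encodes a kinase that holds cells in quiescence, and its 3 probes differed widely from each other. The third probe, A_55_P2302577, had a processed signal of 3645 and 3465 in untreated cultures and of 41.5 and 41.8 after OGD. Both OGD arrays were therefore far below both untreated arrays. On the normalized log2 scale this was 0.73 ± 0.066 (SD, n = 2) against −4.32 ± 0.14 (SD, n = 2), a difference of −5.04 (SE 0.11), or 32.9-fold lower. Among all 28258 probes tested, 1.33% were called and more than 10-fold apart, 0.524% on the lower side, and this was the only 1 of the 15 kinase probes past the 10-fold limit. Scaling on the spiked-in RNA gave −6.33, and normexp background correction gave the smallest difference of the 16 alternatives, −3.99.

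The other *Dyrk1b* probes differed less from untreated cultures. The second, A_55_P2021792, was at 313 and 346 in untreated cultures and at 57.8 and 65.1 after OGD, a difference of −1.05 (SE 0.16). This was lower on both OGD arrays, but the difference was −0.46 with normexp and −2.34 on the spiked-in scale, and the call was lost with the methods' t-test and without untreated replicate 2 (−0.99). For the first, A_55_P2143324, the signal was 84.8 and 86.5 against 28.9 and 31.9. Its difference of −0.12 (SE 0.14) was within the spread of the arrays, whose normalized values overlapped. It turned to 0.56 with normexp and to 0.045 without OGD replicate 1, and was −1.41 on the spiked-in scale.

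**Figure D3:**
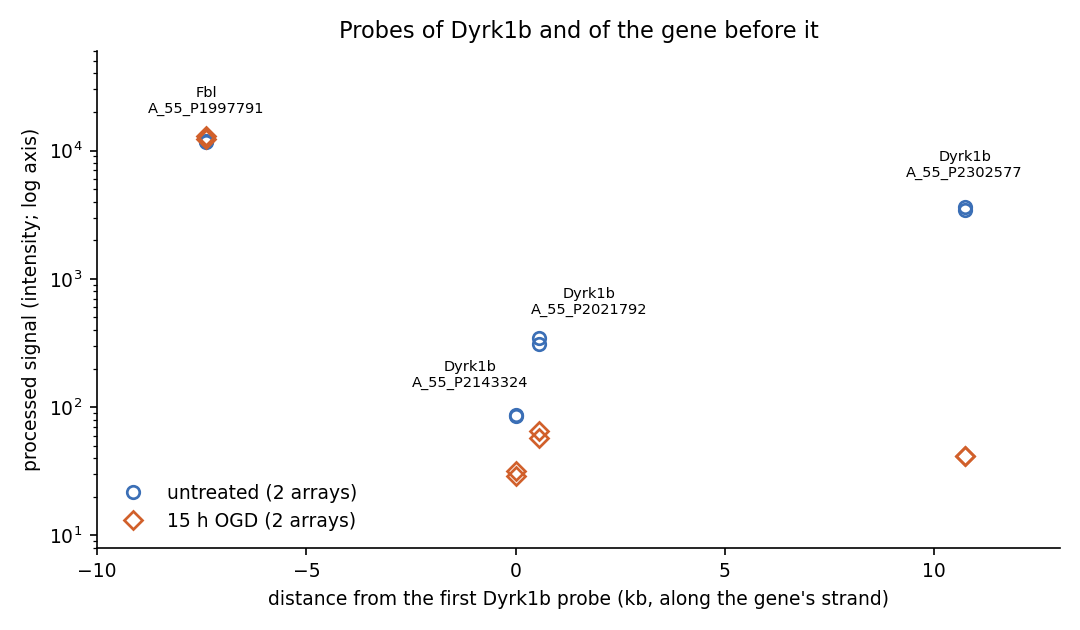
Processed signal (intensity, log axis) of the 3 *Dyrk1b* probes and of the probe of *Fbl*, the named gene before them on the array, against the distance from the first *Dyrk1b* probe along the strand in kilobases. Circles are the 2 untreated arrays and diamonds the 2 arrays after 15 h of OGD, and the gap between them is widest at the last *Dyrk1b* probe.

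The plot of *Dyrk1b* by position shows that the gap between the groups widens from the first to the last probe. Because both probes of a ratio are read on the same array, the ratio needs no scaling between arrays. The log2 ratio of the third to the second probe was 3.54 and 3.33 in untreated cultures against −0.48 and −0.64 under OGD. The ratio of the third to the first was 5.43 and 5.32 against 0.52 and 0.39, and that of the second to the first was 1.88 and 2.00 against 1.00 and 1.03. In all 3 ratios the untreated arrays stood apart from the OGD arrays. The differences of the 3 probes covered a range of 4.92, and 25 of the 5604 genes with more than 1 probe tested, or 0.446%, had a range at least as wide (median range, 0.60). The predicted transcript of the third probe is among the 9 RefSeq transcripts of *Dyrk1b*, of which 3 are curated and 6 predicted.

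The nearest named genes on either side of the *Dyrk1b* probes were read for comparison. *Fbl*, which encodes the nucleolar methyltransferase fibrillarin and whose probe lies at −7391 bases from the first *Dyrk1b* probe, had a signal of 11587 and 11778 in untreated cultures and of 12211 and 13098 after OGD. Its difference after scaling was 1.49 (SE 0.13), or 0.20 on the spiked-in scale. *Eid2*, an inhibitor of differentiation whose probe lies 71274 bases beyond the third *Dyrk1b* probe, was at 1681 and 1987 against 662 and 598, a difference of −0.16 (SE 0.11), or −1.45 on the spiked-in scale.

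*Dyrk2* encodes a kinase that serves as the scaffold of a ubiquitin ligase and phosphorylates p53, and its 2 probes differed in opposite directions. A_55_P2052939, the earlier in the direction of transcription, was at 164 and 177 in untreated cultures and at 263 and 178 after OGD. The second OGD array thus lay close to the untreated arrays before scaling, and the difference after scaling was 1.72 (SE 0.16). A_55_P2329680, the later, was at 394 and 388 in untreated cultures and at 112 and 75.2 after OGD, a difference of −0.72 (SE 0.16). The log2 ratio of the earlier to the later probe was −1.26 and −1.13 in untreated cultures against 1.23 and 1.24 under OGD. The groups were separate and the OGD arrays nearly equal in this ratio. The range of 2.44 between both probes was reached by 404 of the 5604 genes, or 7.21%. On the spiked-in scale the probes differed by 0.43, where the call of the earlier was lost, and −2.01. The later probe was at −0.33 with normexp, and its call was lost with the methods' t-test, without untreated replicate 1 (−0.69) and without untreated replicate 2 (−0.74).

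**Figure D4:**
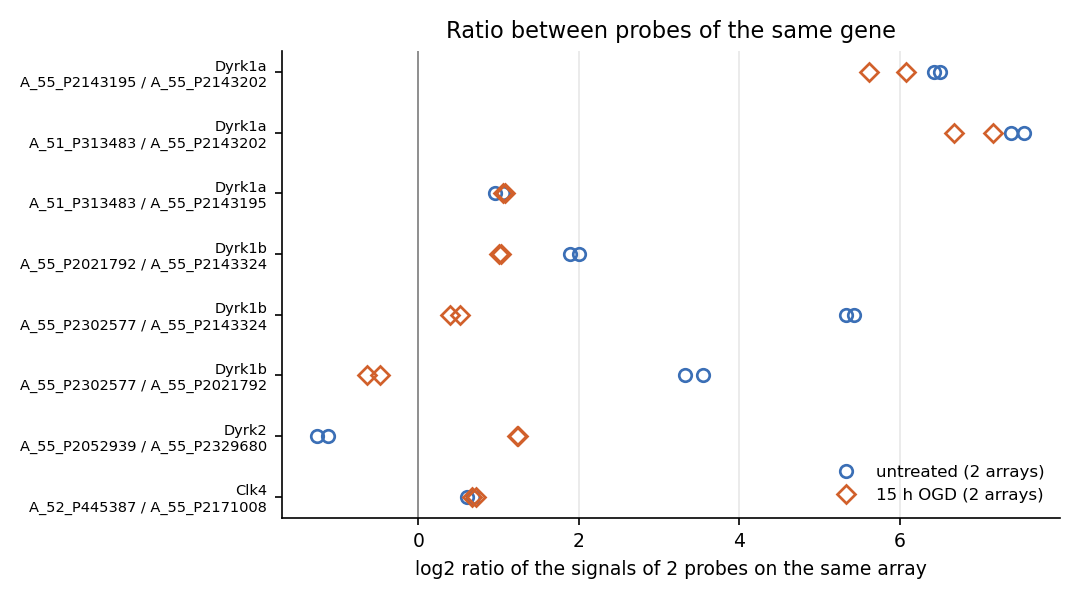
Log2 ratio of the processed signals of pairs of probes of the same gene on the same array, for the 2 untreated arrays (circles) and the 2 arrays after 15 h of OGD (diamonds). A ratio that is alike in both groups means that both probes differed alike, as for *Clk4* (0.68, 0.61, 0.66 and 0.72), whereas the ratios of *Dyrk1b* and *Dyrk2* are separated by group.

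*Dyrk1a*, whose product is known to drive NFAT factors out of the nucleus, carried 3 probes on chromosome 16. A_51_P313483 (94913783 to 94913842) was at 2699 and 2846 in untreated cultures and at 1870 and 1889 after OGD, a difference of 0.81 (SE 0.11). A_55_P2143195 (94913681 to 94913740), which starts 102 bases before it, was at 1389 and 1372 against 882 and 909, a difference of 0.75 (SE 0.11). These 2 probes differed alike, and the log2 ratio between them was 0.96 and 1.05 in untreated cultures against 1.08 and 1.06 under OGD. Both were lower in unscaled signal, and on the spiked-in scale their differences turned to −0.48 and −0.54. The third probe, A_55_P2143202 (94791766 to 94791825), lies 121915 bases before the second and was dim, at 16.1 and 15.2 in untreated cultures and 13.1 and 18.5 after OGD. The OGD arrays lay on either side of the untreated ones before scaling, and its difference was 1.37 (SE 0.26), or 0.08 on the spiked-in scale. Its call was lost on that scale, with the methods' t-test and without untreated replicate 1 (1.42) or 2 (1.31). A_55_P2143195 lost its call with the methods' t-test and without untreated replicate 1 (0.77) or 2 (0.73). A_51_P313483 lost its call without untreated replicate 1 (0.78).

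*Dyrk3* and *Dyrk4* had a single probe each. *Dyrk3*, whose product dissolves stress granules and other condensates, was at 2615 and 2631 in untreated cultures and at 924 and 944 after OGD (chromosome 1, 133025135 to 133025194). This was close to the fall of the 75th percentile itself, and the difference was −0.12 (SE 0.11), with overlapping groups, or −1.40 on the spiked-in scale. *Dyrk4* (chromosome 6, 126826245 to 126826304) was near the limit of detection, at 16.1 and 17.8 in untreated cultures and at 4.34 and 4.59 after OGD. Since it was not well above background on either OGD array and its bound is below 1, no fold is given.

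The 5 *Clk* probes were all higher after OGD on the 75th-percentile scale, with a median difference of 1.35. The 10 *Dyrk* probes had a median of −0.12, with 4 called higher and 4 lower. Their lower calls, here and on the spiked-in scale, include that of *Dyrk4*, which was above background in untreated cultures only. Over all probes tested the median was 0.18, with 37.9% called higher and 27.1% lower. On the spiked-in scale the medians were 0.06 for *Clk* and −1.41 for *Dyrk*, against −1.11 for all probes. There 2 *Clk* probes were called higher and 2 lower, and 0 *Dyrk* probes higher and 8 lower, against 4.47% and 81.9% of all probes.

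*Clk4* encodes a nuclear SR protein kinase closely related to CLK1. A_52_P445387 was at 3850 and 3866 in untreated cultures and at 6196 and 6012 after OGD, and A_55_P2171008 at 2398 and 2536 against 3910 and 3651. Both probes were thus brighter on both OGD arrays even before scaling. The differences were 2.03 (SE 0.091) and 1.99 (SE 0.084), or 4.10-fold and 3.97-fold, and 0.75 and 0.70 on the spiked-in scale. On the normalized log2 scale A_52_P445387 was at 0.84 ± 0.010 (SD, n = 2) against 2.88 ± 0.105 (SD, n = 2). The range between both probes was 0.046, and 94.4% of the genes with more than 1 probe tested had a range at least as wide. These were the only kinase probes that kept a positive difference and the adjusted p limit in each of the 16 alternatives.

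*Clk3*, *Clk1* and *Clk2*, whose products are SR protein kinases as well, had 1 probe each. *Clk3* (chromosome 9, 57599926 to 57599985) was at 2414 and 2492 in untreated cultures and at 2473 and 2345 after OGD. The unscaled signal therefore overlapped between the groups, and the difference was 1.35 (SE 0.085), or 0.06 on the spiked-in scale. *Clk1* was at 2010 and 2206 against 1509 and 1338, a difference of 0.81 (SE 0.085). *Clk2* (chromosome 3, 88980452 to 88980511) was at 2870 and 3012 against 1621 and 1506, a difference of 0.46 (SE 0.082). Both were higher relative to the 75th percentile and lower in unscaled signal, and on the spiked-in scale they turned to −0.48 and −0.83. The call of *Clk2* was lost without untreated replicate 1 (0.44) and without untreated replicate 2 (0.49).

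**Figure D5:**
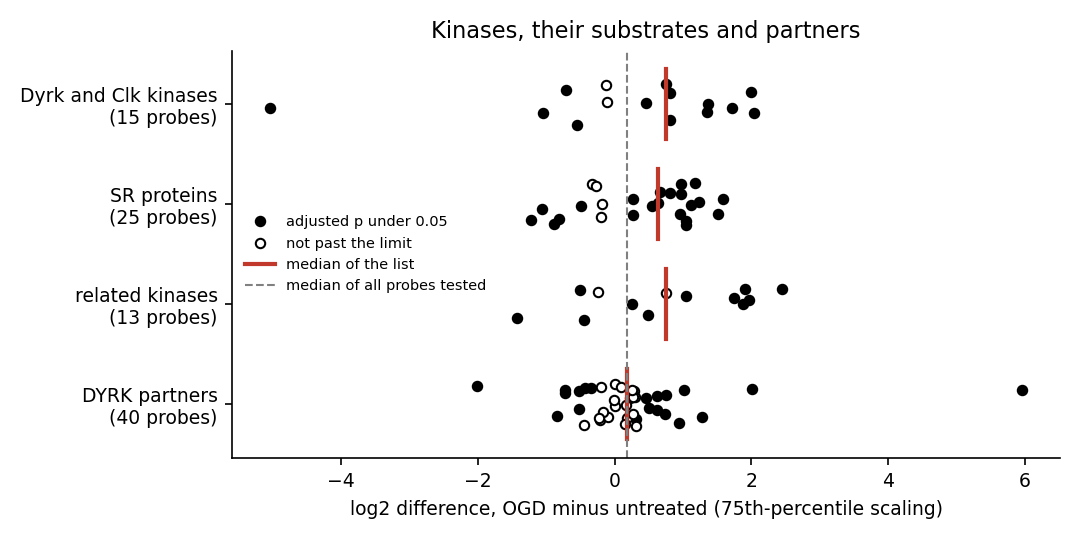
Log2 difference, OGD minus untreated on the 75th-percentile scale, of every probe tested of the *Dyrk* and *Clk* kinases, the SR proteins, the related kinases and the DYRK partners (filled points, limma adjusted p under 0.05). Red bars are the medians of the lists (0.75, 0.63, 0.76 and 0.18) and the dashed line is the median of all probes tested, 0.18. On the spiked-in scale, not drawn, the list medians turn to −0.54, −0.65, −0.53 and −1.11, and that of all probes to −1.11.

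The SR proteins, which CLK kinases phosphorylate, are compared with the kinases in the plot of the lists. Of 27 probes for 13 genes, 25 were tested and 21 passed the adjusted p (84.0%, against 65.0% of all probes), 16 of them higher and 5 lower, with a median difference of 0.63. In 8 of the 13 genes every tested probe was called higher, and in 2 every tested probe was called lower. The like share over all genes was not computed, so nothing is read from these gene counts. *Srsf5* rose most relative to the 75th percentile, by 1.58 (SE 0.093, limma adjusted p = 0.00116), with a signal of 6980 and 7297 in untreated cultures and of 8354 and 8109 after OGD. *Srsf11* followed at 1.51 (SE 0.43, limma adjusted p = 0.0421) at A_55_P2149812, a dim probe with OGD arrays that differed from each other (83.1 and 164). Its bright probe A_55_P2149821, at 6373 and 6345 against 5561 and 5514, differed by 1.17 (SE 0.099, limma adjusted p = 0.00205) and A_55_P2149816 by 1.11, which turned to −0.11 and −0.18 on the spiked-in scale. *Srsf1*, the founding member, fell by 1.22 (SE 0.084, limma adjusted p = 0.00147), from 2330 and 2336 to 428 and 348. Its other tested probes fell by 1.07 and, at the brightest, by 0.49 (limma adjusted p = 0.0254). *Tra2b*, a splicing activator, fell by 0.88 (SE 0.18, limma adjusted p = 0.0167) from 59.95 and 44.4 to 11.54 and 10.1, and with normexp turned to 0.62. On the spiked-in scale 0 of the 25 were called higher and 16 (64.0%) lower, with a list median of −0.65, against 4.47% higher and 81.9% lower of all probes. *Srsf5* and the dim *Srsf11* probe were then at 0.29 and 0.22, not past the limit (adjusted p = 0.0605 and 0.595). The list split into 12 higher and 7 lower with quantile normalization and into 11 and 8 with the percentile over detected probes. Fewer probes passed than with all arrays, as was so over all probes, in the fits without untreated replicate 1 and without untreated replicate 2. The call of the dim *Srsf11* probe was lost in 7 of the 16 alternatives (adjusted p = 0.0534 to 0.595), both of these among them (0.13 and 0.16), while that of the bright one was lost on the spiked-in scale only (adjusted p = 0.37). The brightest *Srsf1* probe lost its call in 3 alternatives, the same 2 left-out arrays and the methods' t-test (adjusted p = 0.0964 to 0.146), and *Tra2b* lost its call with the methods' t-test (adjusted p = 0.0991) and without OGD replicate 1 or 2 (adjusted p = 0.053 and 0.0543).

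Of the other kinases of SR proteins and the HIPK relatives of DYRK, 13 of 14 probes for 8 genes were tested. Among them 8 were called higher and 3 lower (84.6% called, against 65.0% of all probes), with a median difference of 0.76. One of the 3 lower, *Srpk3*, was not well above background after OGD. *Hipk2*, a nuclear kinase that acts on p53, rose by 2.44 at A_55_P2091861 (SE 0.16, limma adjusted p = 0.00136), from 205 and 207 to 403 and 462. Its other probe differed by 0.49 (adjusted p = 0.0108), which turned to −0.80 on the spiked-in scale. The call of that other probe was lost without untreated replicate 1 (0.53) or 2 (0.45). *Hipk1* rose by 1.97 (SE 0.20, limma adjusted p = 0.00281), and its 3 probes lay between 1.74 and 1.97. *Prpf4b*, a kinase of the spliceosome, fell by 0.51 (SE 0.10, limma adjusted p = 0.0156). *Hipk3*, the next lowest gene among called probes above background on all arrays, was at 0.25 (SE 0.076, limma adjusted p = 0.0495), which turned to −0.22 with quantile normalization and −1.04 on the spiked-in scale, and its other probe was at 1.87. *Srpk1*, the cytoplasmic kinase that primes SR proteins, rose by 1.04 (SE 0.13, limma adjusted p = 0.0051), or −0.25 on the spiked-in scale, while its second probe was too dim to be tested. *Srpk2*, its paralog, was at −0.25 (SE 0.083, limma adjusted p = 0.0634). On the spiked-in scale 5 of the 13 probes were called higher and 6 lower, against 4.47% and 81.9% of all probes. The list median was then −0.53. Without untreated replicate 1 or 2, fewer probes were called than the 11 with all arrays, as was so over all probes. The calls of *Prpf4b* and *Hipk3* were among those lost. *Prpf4b* also lost its call with the methods' t-test (adjusted p = 0.0644) and with normexp, where it was at −0.16 (adjusted p = 0.191). *Hipk3* passed the limit by a small margin and lost its call in 10 of the 16 alternatives (adjusted p = 0.0546 to 0.312), including without OGD replicate 1 or 2 (adjusted p = 0.0853 and 0.0704).

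Partners and substrates of DYRK kinases formed the third list. Of its 40 probes for 24 genes, all tested, 12 were higher and 8 lower (20 of 40 called, against 65.0% of all probes), with a median of 0.18, as over all probes. On the spiked-in scale 2 were higher and 36 lower, against 4.47% and 81.9% of all probes. The list median was then −1.11, as over all probes. *Dcaf7*, the adaptor that binds DYRK1A and DYRK1B, rose at each of its 3 probes, by 1.01, 0.73 and 1.28 (limma adjusted p = 0.0025, 0.0098 and 0.0027), which turned to −0.28, −0.56 and −0.0058 on the spiked-in scale. *Lin52*, the subunit through which DYRK1A assembles the DREAM complex of quiescent cells, was at −0.22, 0.17 and −0.20 (limma adjusted p = 0.0657, 0.114 and 0.144). *Siah2*, a ubiquitin ligase of hypoxic cells that targets DYRK2, rose by 0.61 (SE 0.098, limma adjusted p = 0.0088), or −0.67 on the spiked-in scale. *Ccnd1*, the cyclin that DYRK1B marks for degradation, was at 0.19 (SE 0.081, limma adjusted p = 0.117), and turned to −0.67 with quantile normalization and −1.103 on the spiked-in scale. *Rcan1*, a calcineurin regulator phosphorylated by DYRK1A, rose by 0.32 (SE 0.086, limma adjusted p = 0.037), or −0.97 on the spiked-in scale.

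The genes at the extremes of this list were NFAT factors, which DYRK1A phosphorylates, and *Cdkn1a*, the p21 cell cycle inhibitor. *Nfatc2* rose at A_52_P628171 by 5.96 (SE 0.21, limma adjusted p = 0.000751), from 11.8 and 11.2 to 245 and 312, while its other probe was at 910 and 959 against 390 and 376, a difference of 0.09 (limma adjusted p = 0.449). That second value turned to −1.20 on the spiked-in scale and to −0.062 with the percentile over detected probes. *Nfatc1* fell by 2.01 (SE 0.082, limma adjusted p = 0.000775) at A_51_P517870 and was at 0.30 (adjusted p = 0.101) at its other probe. *Nfatc3* fell by 0.84 and 0.73 at 2 probes (limma adjusted p = 0.00607 and 0.0119), the first of which turned to 0.24 with normexp, and was at 0.27 at the third (adjusted p = 0.206). *Cdkn1a* rose by 2.01 at A_55_P1976204, a dim probe (SE 0.25, limma adjusted p = 0.00474, lost with the methods' t-test at adjusted p = 0.0553), and by 0.94 at its brightest (adjusted p = 0.0019), which turned to −0.35 on the spiked-in scale, and fell by 0.44 at the third (adjusted p = 0.0485). Fewer probes of this list were called without untreated replicate 1 or 2 than with all arrays, as was so over all probes. The calls of *Siah2* (adjusted p = 0.074 and 0.0562), *Rcan1* (0.224 and 0.132), *Nfatc3* (0.0512 and 0.0563 at A_55_P2184429, 0.0805 and 0.0614 at A_66_P117659), *Cdkn1a* at the third probe (0.176 and 0.197) and *Dcaf7* at A_55_P2026370 (0.0727 and 0.0626) were lost. *Rcan1* lost its call in 10 of the 16 alternatives (adjusted p = 0.0586 to 0.224), including without OGD replicate 1 or 2, and the third *Cdkn1a* probe in 9 (0.0558 to 0.197), including without OGD replicate 2.

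The 5 genes whose pattern was most like that of the third *Dyrk1b* probe were sought among 24493 probes well above background on all 4 arrays, by the root mean square difference over the 4 arrays of log2 values centered on the untreated mean. *Ndst3*, a sulfotransferase of heparan sulfate synthesis, came first at 0.058, with a signal of 1388 and 1342 in untreated cultures and of 16.8 and 15.1 after OGD. *Lfng*, a glycosyltransferase that modifies Notch receptors, was next at 0.21, followed by *Grrp1* at 0.35, *Prtg* at 0.42 and *AI594671* at 0.47. Their log2 differences were −5.05, −5.23, −4.59, −4.49 and −4.44, in that order. They were chosen for this likeness, so no test of it is given.

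The sequences before the transcription starts of *Dyrk1b* and *Clk4* are shown for the letters they hold. These genes carry the kinase probes with the lowest and the highest difference. For *Dyrk1b* that is the third probe only, and no window was tied to the transcript of that probe. RefSeq start sites on GRCm38.p6 (another build than that of the probes) gave 11 windows of 250 bases upstream for 8 of the 9 genes, and *Clk1* had none here. Capitals mark CACGTG in the *Dyrk1b* window (chr7:28179233-28179482, plus strand) and TGACGTCA in the *Clk4* window (chr11:51262864-51263113, plus strand).
*Dyrk1b*: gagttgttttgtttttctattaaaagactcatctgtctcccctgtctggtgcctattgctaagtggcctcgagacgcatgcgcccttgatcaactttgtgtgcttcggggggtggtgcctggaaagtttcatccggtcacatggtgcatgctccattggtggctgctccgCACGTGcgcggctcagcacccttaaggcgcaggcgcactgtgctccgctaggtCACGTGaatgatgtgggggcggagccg
*Clk4*: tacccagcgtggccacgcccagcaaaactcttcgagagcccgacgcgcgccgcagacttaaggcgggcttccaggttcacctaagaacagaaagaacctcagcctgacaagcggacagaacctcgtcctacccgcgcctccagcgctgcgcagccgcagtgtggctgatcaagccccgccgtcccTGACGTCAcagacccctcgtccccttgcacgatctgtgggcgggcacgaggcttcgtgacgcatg
The E-box CACGTG starts 80 and 27 bases before this *Dyrk1b* start site, is not in the window of the other *Dyrk1b* start site (chr7:28180066-28180315), and is also in the window of *Clk2*, as in 6.02% of all 32851 windows. TGACGTCA, the cyclic AMP response element, starts 65 bases before the *Clk4* start site. It is in 1.55% of all windows and in 2.72% of those with at least 60% G and C, as the *Clk4* window has. ACGTG or GCGTG, the core to which hypoxia-inducible factors bind and which CACGTG contains on both strands, was in 10 of the 11 windows on either strand, all but that of *Dyrk4*. It was in 38.6% of all windows and in 63.8% of the 9178 windows with at least 60% G and C, a class that holds 7 of the 11. These letters were searched after the windows had been read, and a match is a description of the sequence only.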

How the data were processed

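Probe values were read from the scanner output of 4 arrays, 2 of untreated AECs and 2 of AECs after 15 h of OGD, as grouped by the labels. The authors deposited an intensity for each spot, the processed signal of Agilent Feature Extraction (version 11.5.1.1 per the submitters' processing notes), corrected for background within arrays and not normalized between them. The arrays shared 1 slide and 1 scan. Each held 43020 non-control spots, 64.5% to 73.7% of them well above background. Arrays have no read depth, and their number limits the precision.

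The deposited intensity was put on the log2 scale without outlier spots (119 to 132 per array), replicate spots of a probe were averaged and each array's 75th percentile was subtracted, so that a change shared by most probes is not seen. Tested probes were well above background (a fraction of 0.5 or more of their spots) on both arrays of 1 group or of both. The comparison used lmFit and eBayes from limma 3.58.1 (R 4.3.3) and Benjamini–Hochberg adjustment over 28258 probes, and a probe was called at an adjusted p under 0.05. The limma step alone was also run on simulated data without a shift between arrays, which does not test the scaling. Python 3.11.15, pandas 2.3.3, numpy 2.4.6 and matplotlib 3.10.9 were used for tables and plots.

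The kinases and the lists were chosen with earlier results of these data known, so no p-value is given for a kinase probe, and those of the list genes, adjusted over all probes tested, are not independent of that choice. From each list, the 2 genes with the highest and the 2 with the lowest difference among called probes well above background on all arrays were named, with *Srpk1*, *Srpk2*, *Dcaf7*, *Lin52*, *Siah2*, *Ccnd1* and *Rcan1* throughout. *Fbl* and *Eid2* were named after their values had been seen, for their position, and have no p-value. The samples were not paired in the comparison, since the labels do not tie them to a preparation. Differences between replicates 1 and 2 correlated across probes at r = −0.057 between the groups. Such a value cannot show whether arrays of the same number shared a preparation, so pairing was not settled. The 16 alternatives were the methods' t-test, a trended robust prior, the replicate block, normexp (offset 50), and quantile, median, detected-probe and spiked-in scaling. They further held 2 other filters, outliers kept, the authors' series table (the same processed signal) and each array left out in turn. The methods' 10-fold limit was counted apart from these. Of the 15 kinase probes, 13 carry an accession found in the RefSeq table under the same gene. Probe positions are on mm9, as the file headers give it.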

Additional observations from a re-analysis of the deposited data

How the results depend on the processing

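The *Dyrk1b* probe A_55_P2302577 and both *Clk4* probes kept their direction and their side of the adjusted p limit in all 16 alternatives. Values that changed direction with the spiked-in scaling were −0.54 and −0.48 for 2 *Dyrk1a* probes, −0.48 for *Clk1*, −0.83 for *Clk2*, −1.04 for *Hipk3*, −0.11 and −0.18 for *Srsf11* A_55_P2149821 and A_55_P2149816, −0.80 for *Hipk2* A_55_P2091858, −1.103 for *Ccnd1*, −0.35 for the brightest *Cdkn1a* probe, −0.28, −0.56 and −0.0058 for *Dcaf7*, −1.12 for *Lin52* A_66_P101514, −0.99 for *Nfatc1* A_51_P220135, −1.20 for *Nfatc2* A_55_P1967978, −1.02 for *Nfatc3* A_52_P333419, −0.97 for *Rcan1*, −0.67 for *Siah2* and −0.25 for *Srpk1*. With normexp the first *Dyrk1b* probe turned to 0.56, *Tra2b* to 0.62 and *Nfatc3* A_55_P2184429 to 0.24, and the values of *Dyrk4* and *Srpk3*, neither above background after OGD, to 0.99 and 1.00. Quantile normalization turned *Hipk3* to −0.22 and *Ccnd1* to −0.67, the percentile over detected probes turned *Nfatc2* A_55_P1967978 to −0.062, and leaving out each array in turn gave −0.29 to 0.045 for the first *Dyrk1b* probe, the latter without OGD replicate 1. The cause of these turns was not tested, beyond the shift that a scaling gives to all probes.

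The methods' t-test called 8 of the kinase probes. With limma, 1 kinase probe and 377 of all probes passed both the adjusted p and the 10-fold limit. Without 1 array each, the calls ranged from 10264 to 19190 for all probes, from 7 to 13 for the kinases, from 12 to 19 for the SR proteins, from 7 to 11 for the related kinases and from 7 to 22 for the DYRK partners, and the lowest counts came without an untreated array, where the lone untreated array is assumed to vary like the OGD group. The spiked-in scaling called 38 DYRK partner probes. With normexp, 17757 probes were higher and 5365 lower, against 10709 and 7646. The replicate block called 17206 of all probes, 13 of the kinase probes, 16 SR protein, 10 related kinase and 17 DYRK partner probes, and changed no kinase call, while 2 dim *Srsf11* probes (A_55_P2149812 and A_55_P2149816), *Hipk3* A_52_P109010, *Rcan1* and the third *Cdkn1a* probe lost theirs. Dim probes such as *Dyrk4* are limited by signal over background.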

Other observations

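*Srpk3*, a muscle-enriched SR protein kinase that the rule for named genes does not cover, was singled out after its values had been seen. Its signal was 12.2 and 15.0 in untreated cultures and 1.81 and 2.06 after OGD, where it was not well above background, so no fold is given.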
